A study of Mus musculus with 22 samples.

Results

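Effector cytokines are the secreted and membrane-bound proteins through which CD8+ T cells act on other cells. The genes described here are Ifng, Tnf, Il2, Csf2, Lta, Ltb, Fasl and Il10, each taken as the row of the expression table that carries its symbol. These are 8 of 46297 rows. RNA sequencing covered 22 libraries of P14 T cells from C57BL/6 mice aged 6 to 12 weeks. P14 cells are CD8+ T cells with a transgenic receptor specific for a lymphocytic choriomeningitis virus peptide. The libraries fall into 10 groups. Unsplit day 11 tumor had 3 libraries of wild type (WT) cells and 3 of cells deficient in VHL, the ubiquitin ligase subunit that marks HIF alpha proteins for degradation. The other 8 groups had 2 libraries each and were all taken on day 7. They were spleen, unsplit tumor, tumor cells labelled Trm (the usual short form for tissue-resident memory) and tumor cells labelled nonTrm, each in both genotypes. The P14 receptor was common to all groups, and the series design gives 5 mice to each replicate. The sources used here do not give how VHL was removed, which tumor was used, what day 0 was and which markers defined Trm. Since separate animals are not named for each library, p-values measure library-to-library spread, which may be technical.

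Interferon gamma, encoded by Ifng, and tumor necrosis factor, encoded by Tnf, are the classical secreted effectors of CD8+ T cells and act on macrophages, tumor cells and endothelium. Il2 encodes the growth factor of T cells, and Csf2 encodes GM-CSF, which acts on myeloid cells. Lta and Ltb encode the lymphotoxins, which pair at the cell surface to engage the lymphotoxin beta receptor. Fasl encodes Fas ligand, a membrane protein that starts apoptosis through Fas, and Il10 encodes a cytokine that restrains inflammation. Transcription of these genes follows engagement of the T cell receptor, and several of the mRNAs are short-lived because their 3′ untranslated regions (UTRs) carry AU-rich elements that RNA-binding proteins recognise.

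Ltb, Tnf and Lta are neighbours on mouse chromosome 17. In the mm10 build and the GENCODE M21 annotation Ltb lies at chr17:35194439-35196320 on the plus strand, Tnf at chr17:35199381-35202007 and Lta at chr17:35203165-35205351, both on the minus strand. The gaps are 3.06 kb between Ltb and Tnf and 1.16 kb between Tnf and Lta. Csf2 lies at chr11:54247271-54249667 on the minus strand, 15.6 kb from Il3, which encodes interleukin 3. Ifng lies at chr10:118441046-118445892 (plus), Il2 at chr3:37120523-37125959 (minus), Fasl at chr1:161780689-161788495 (minus) and Il10 at chr1:131019845-131024974 (plus). No source used here says whether reads were counted by strand, and some annotated genes overlap members. Adad1 overlaps Il2 and had at most 9 reads in a library, and Gm12223 overlaps Csf2 and had at most 4.

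The 3′ UTRs are shown because the AU-rich pentamer ATTTA separates the members. Each window below holds 30 bases of the mm10 sequence, read 5′ to 3′ on the gene's strand, with ATTTA in capitals. The windows lie at chr11:54247329-54247358 (minus) for Csf2, chr17:35199679-35199708 (minus) for Tnf, chr3:37121040-37121069 (minus) for Il2 and chr10:118445330-118445359 (plus) for Ifng.
Csf2: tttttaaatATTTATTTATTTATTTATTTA
Tnf: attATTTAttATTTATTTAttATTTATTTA
Il2: ctATTTATTTAaatATTTAactttaATTTA
Ifng: aacctATTTAttaatATTTAaaactATTTA

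The whole UTR of Csf2, 317 bases long, held 9 copies of ATTTA counted with overlaps, and Tnf held 8 in 764 bases. Il2 held 7 in 581 bases, Ifng 6 in 631 bases and Il10 6 in 706 bases. Lta held 3 in 572 bases, Fasl 1 in 887 bases and Ltb 0 in 174 bases. Of 20966 mouse 3′ UTRs, 65.0% held the pentamer at least once. The next shares are of UTRs within 20% of the member's length that held at least as many copies, with the member itself counted. The share was 0.0584% of 1712 UTRs for Csf2, which is Csf2 alone, and 0.342% for Tnf. It was 0.477% for Il2, 1.38% for Ifng, 2.03% for Il10, 12.5% for Lta and 68.4% for Fasl. The longer form TTATTTATT, which contains ATTTA, was found 5 times in Tnf, 4 times in Csf2 and 1 time each in Il2 and Lta, and in 7.60% of all UTRs.

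Each library held 3375558 to 10211060 reads assigned to genes. A level is given as a scaled count, which is the read count divided by the authors' size factor for the library, and 1 read is worth 0.684 to 2.73 scaled counts. A count of 0 therefore allows a level of up to 3 reads, or 2.05 to 8.18 scaled counts depending on the library. These limits cover counting error only. Vhl had 0 to 32 reads in the VHL-deficient libraries and 60 to 280 in the WT libraries, so that both labels held in all 22. All 9 CD8 T cell markers had reads, and their summed level was 27059 to 77045. The second VHL-deficient nonTrm library (replicate 2) stood apart, with 34358 scaled counts of the nuclear RNA Malat1 and the highest share of ribosomal RNA reads, 45.7%. WT day 11 replicate 2 held 728 scaled counts over the 5 neutrophil markers, against 0.762 to 3.84 in the other 5 day 11 libraries, and Csf2 and Il2 are also given without it. The sample titles end in a letter and a number, which were read here as a plate position, an inference from the titles alone. Plate columns read in this way coincide with sorting and with day. Column 1 held the Trm and nonTrm cells, column 2 the other day 7 cells and column 3 the day 11 cells.

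Levels of different genes were compared per kilobase of exon. In WT spleen cells Ltb led with a mean of 1618 scaled counts per kb, followed by Fasl with 204, Ifng with 64.3 and Tnf with 49.5, while Il2 and Il10 had no read. In unsplit WT tumor cells on day 7 Ifng was at 1224 per kb beside Ltb at 1063. Fasl followed at 492, Csf2 at 158, Tnf at 132, Lta at 64.4 and Il2 at 4.44. In VHL-deficient day 11 tumor cells Csf2 reached 1317 per kb, with libraries between 999 and 1640. That range overlapped those of Ltb, 1196 to 1573 per kb, and Ifng, 1058 to 1249 per kb. In WT day 11 tumor cells Csf2 was at 178 per kb, far under Ifng at 1399 and Ltb at 1063.

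**Figure D1:**
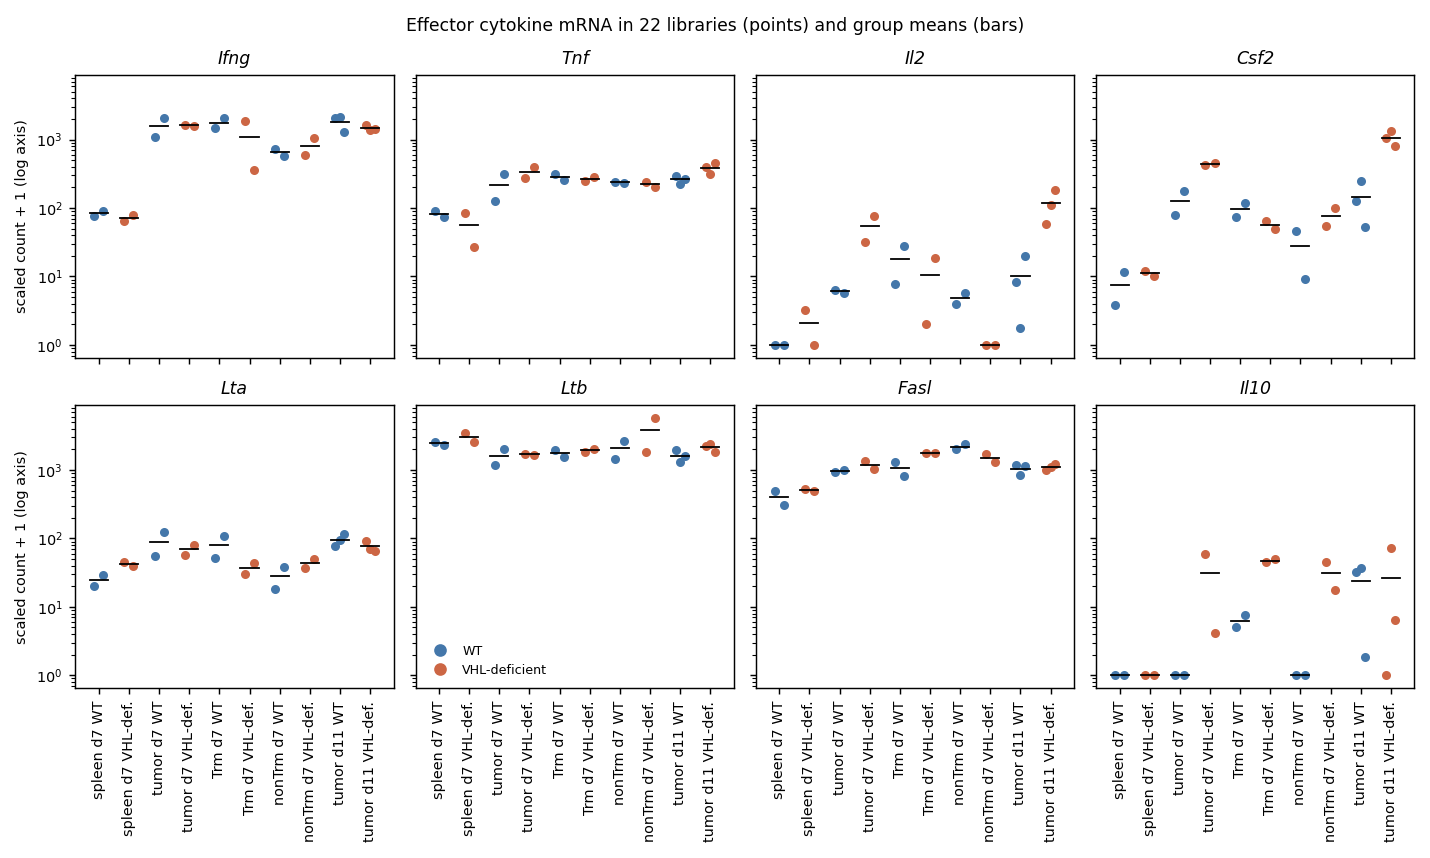
Scaled count + 1 of each of the 8 cytokine genes (log axis) in the 10 groups, with a point for each of the 22 libraries and a bar at the group mean. Ifng and Fasl lie lower in all 4 spleen libraries than in any of the 18 tumor libraries, and Csf2 and Il2 lie highest in the VHL-deficient unsplit tumor libraries.

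**Figure D2:**
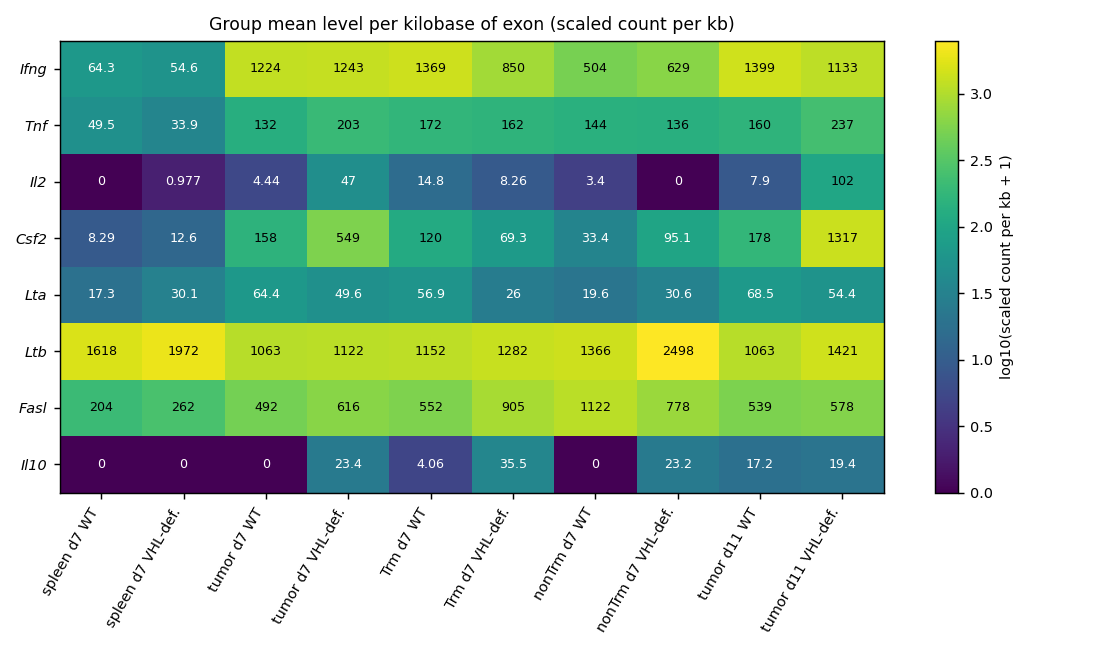
Mean level of each gene in each group in scaled counts per kilobase of exon, printed in the cells and coloured on a log10 scale. Csf2 ranges from 8.29 per kb in WT spleen to 1317 per kb in VHL-deficient day 11 tumor, while Ltb lies at 1063 per kb or more in every group.

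Ordered by group mean, most neighbouring groups overlapped in their libraries. For Ifng 8 of 9 neighbouring pairs overlapped, and the single gap, between WT nonTrm cells at 653 and WT spleen at 83.3 scaled counts, parted tumor from spleen. Tnf showed the same single gap, between unsplit WT tumor at 217 and WT spleen at 81.2. For Csf2 the gaps lay between VHL-deficient day 11 tumor (1054) and VHL-deficient unsplit day 7 tumor (439), below the latter, and above WT nonTrm cells (26.7). For Il2 gaps lay below VHL-deficient unsplit day 7 tumor (53.8) and below WT nonTrm cells (3.89). The lower of these parts 4 reads in each WT nonTrm library from 1 read in VHL-deficient spleen replicate 1. It lies under the 3-read floor of that spleen library, 6.70 scaled counts. Fasl had 4 gaps, with WT nonTrm cells highest at 2174 and WT spleen lowest at 396. Lta had 1 gap, Il10 had 1 gap and Ltb had none. The Il10 gap lay below WT Trm cells, at 4.05 and 6.58 scaled counts, again under the floor of 6.70 in VHL-deficient spleen replicate 1. Gaps were not counted over all tested genes, and ranges of 2 or 3 libraries can part by library spread alone. The numbers of gaps are therefore a description only.

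The first comparison set unsplit day 7 tumor cells against day 7 spleen cells and so asked which cytokine mRNAs were more abundant at the tumor site. Ifng, Tnf, Csf2 and Fasl rose in both genotypes, Lta in WT cells and Il2 in VHL-deficient cells. In each genotype 5 of 8 members were called higher and 0 lower, at an adjusted p under 0.05 from limma. Of all 14327 tested genes, 21.5% were called in WT cells (13.2% higher, 8.31% lower) and 15.4% in VHL-deficient cells (9.98% higher, 5.47% lower). The median log2 fold change (log2FC, on log2 of the scaled count + 1) over the 8 members was 1.53 in WT and 3.37 in VHL-deficient cells, against 0.08 and 0.06 over all tested genes. In bulk RNA, more cells that express a gene and more RNA per cell cannot be told apart.

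Ifng had 1090 and 2081 scaled counts in WT tumor against 76.5 and 90.1 in WT spleen, and 1648 and 1572 against 62.6 and 78.8 in VHL-deficient cells. Every tumor library lay above every spleen library, by a log2FC of 4.16 ± 0.49 (SE, adjusted p = 4.61e-06) in WT and 4.50 ± 0.49 (adjusted p = 2.00e-06) in VHL-deficient cells. Csf2 had 78.5 and 174 in WT tumor against 2.78 and 10.5 in WT spleen, with a log2FC of 4.16 ± 0.69 and an adjusted p of 2.06e-04. In VHL-deficient cells Csf2 had 421 and 458 in tumor against 11.2 and 9.02 in spleen, with a log2FC of 5.32 ± 0.69 and an adjusted p of 1.87e-05. The spleen values for Csf2 rested on 2 to 11 reads per library, and the WT log2FC was 3.36 without spleen replicate 1 and 4.96 without spleen replicate 2.

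Tnf had 272 and 393 scaled counts in VHL-deficient tumor against 84.9 and 26.3 in VHL-deficient spleen, a log2FC of 2.76 (adjusted p = 1.26e-04). In WT cells it had 125 and 308 against 89.1 and 73.3, a log2FC of 1.27 (adjusted p = 0.0364). The groups did not overlap in either genotype. Leaving out a day 7 library leaves its group with 1, which is then assumed to vary like the other groups. In VHL-deficient cells the log2FC of Tnf was 3.59 without spleen replicate 1 and 1.93 without spleen replicate 2, and was called in both fits. The WT call for Tnf was lost without WT spleen replicate 1 (adjusted p = 0.0839), WT spleen replicate 2 (0.183) or WT tumor replicate 2 (0.449, log2FC 0.63), while without WT tumor replicate 1 the log2FC was 1.92. It was also lost with voom on the recovered reads (0.0581), without a filter (0.0846) and under other settings given below.

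Fasl had 920 and 985 in WT tumor against 486 and 306 in WT spleen, and 1368 and 1020 against 525 and 489 in VHL-deficient cells. All tumor libraries were higher, by a log2FC of 1.30 (adjusted p = 0.00211) and 1.22 (adjusted p = 0.00451). Without WT spleen replicate 2 the WT adjusted p was 0.0602, and without VHL-deficient tumor replicate 1 the other was 0.0902. Lta, the soluble lymphotoxin chain, had 53.4 and 125 in WT tumor against 19.5 and 28.3 in WT spleen, a log2FC of 1.76 (adjusted p = 0.0115). The adjusted p was 0.0935 without WT spleen replicate 1 and 0.199 (log2FC 1.15) without WT tumor replicate 2, and the log2FC was 2.36 without WT tumor replicate 1. In VHL-deficient cells Lta had 56.8 and 80.4 against 44.7 and 38.6, a log2FC of 0.69 that was not called (adjusted p = 0.358).

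Il2 had 31.1 and 76.4 scaled counts in VHL-deficient tumor against 2.23 and 0 in VHL-deficient spleen, that is 120 reads against 1. The depth-adjusted ratio was 99.6, with a 95% counting interval of 17.5 to 3965, and the adjusted p was 0.00383 (log2FC 4.79). Leaving out VHL-deficient spleen replicate 2 gave an adjusted p of 0.0540 (log2FC 3.95), and leaving out tumor replicate 2 gave 0.0578 (log2FC 4.16). The log2FC was 5.64 without spleen replicate 1 and 5.43 without tumor replicate 1. In WT cells Il2 had 5.45 and 4.70 in tumor, or 7 reads in all, and no read in spleen (adjusted p = 0.0877). Ltb was lower in all tumor libraries, at 1199 and 2025 against 2591 and 2313 in WT and 1723 and 1678 against 3435 and 2543 in VHL-deficient cells. Neither difference was called (log2FC -0.65 and -0.80, adjusted p = 0.261 and 0.194). Il10 had no read in any spleen library or in unsplit WT day 7 tumor. In VHL-deficient tumor it had 58.2 and 3.15 and was not called (adjusted p = 0.0844), and the second value lies under the 3-read floor of spleen replicate 1, 6.70.

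Markers of other cells also moved between tumor and spleen. Of the 6 genes listed for regulatory and other CD4 T cells, Ctla4, Ikzf2 and Foxp3 rose in WT tumor cells and Ctla4 and Ikzf2 in VHL-deficient tumor cells. Their summed level was 4022 to 4244 in WT tumor against 290 to 381 in WT spleen, and 4677 to 6075 against 1332 to 1485 in VHL-deficient cells. Foxp3 had no read in WT spleen and in VHL-deficient tumor. The 6 NK cell markers, several of which CD8+ T cells also express, summed to 11239 to 17579 against 5003 to 6690 in WT cells (Klre1 and Nkg7 rose) and to 10568 to 10900 against 7113 to 9315 in VHL-deficient cells (Klre1 rose). Ncr1, a defining NK cell receptor, had no read in either tumor group. The 9 dendritic cell genes summed to 256 to 423 in WT tumor against 943 to 1294 in WT spleen, and to 2013 to 2355 against 1433 to 1606 in VHL-deficient cells. The 5 B cell markers were lower in tumor, at 532 to 1018 against 1174 to 1222 and at 195 to 197 against 570 to 619 (Cd79b fell in both). The 9 macrophage and monocyte markers summed to 43.6 to 82.3 in WT tumor against 26.4 to 34.6 in WT spleen (Cd68 rose), with Adgre1, Csf1r, C1qa and C1qc at 0 in WT tumor. In VHL-deficient cells they summed to 20.3 to 43.3 against 41.0 to 53.6, with none called. The part of these cells in the cytokine differences was not tested.

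**Figure D3:**
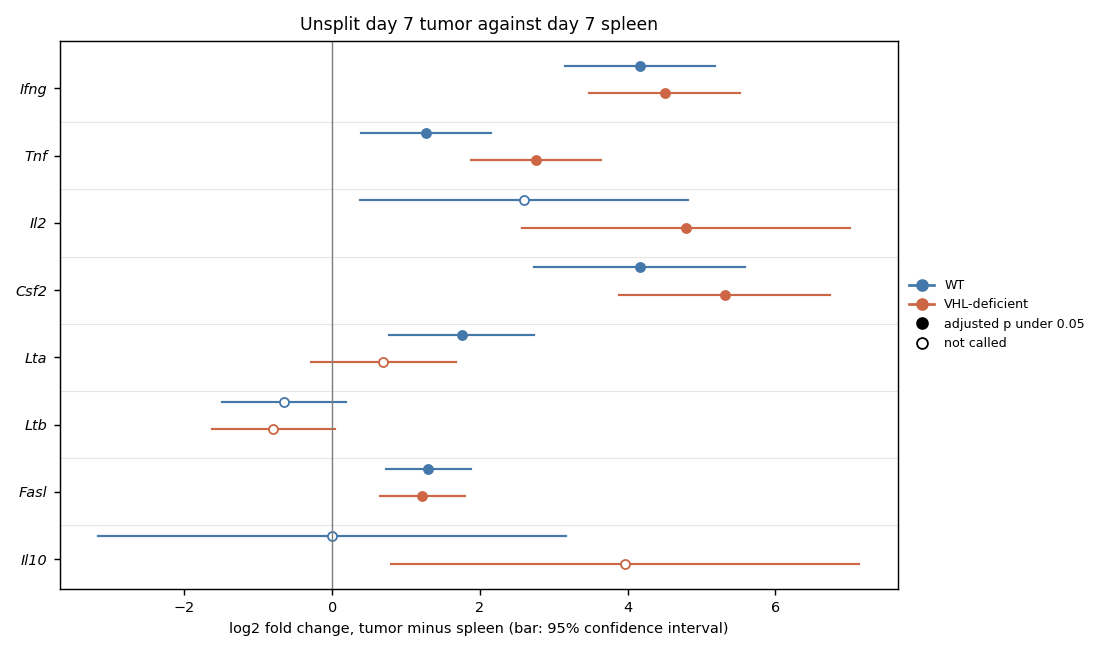
Log2 fold change of each cytokine gene between unsplit day 7 tumor and day 7 spleen, with its 95% confidence interval, in WT (blue) and VHL-deficient (orange) cells. Filled points are called, 5 in each genotype, and Ltb lies on the negative side in both.

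The difference between genotypes was examined in 5 settings, asking how loss of VHL altered cytokine mRNA. In day 11 tumor Csf2 and Il2 rose in VHL-deficient cells, and the other 6 members were not called. This is 2 of 8 members higher and 0 lower, where 6.87% of all tested genes were called (4.47% higher, 2.39% lower). The median log2FC of the members was 0.27, against 0.07 over all tested genes.

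Csf2 had 1050, 1312 and 799 scaled counts in VHL-deficient day 11 tumor against 126, 250 and 51.9 in WT. The lowest VHL-deficient library was above the highest WT library. The means were 1054 ± 256 and 142 ± 100 (SD, n = 3 each), a 7.40-fold difference with a log2FC of 3.12 ± 0.56 (SE) and an adjusted p of 0.00143. Il2 had 58.1, 109 and 182 against 7.29, 0.793 and 19.0, again without overlap, and 431 reads in all against 27. Its means were 116 ± 62.4 and 9.04 ± 9.24, with a log2FC of 3.99 ± 0.87 and an adjusted p of 0.00723. Both calls held under all 11 alternative settings and in all 7 fits that left out a library. The highest adjusted p over these was 0.0167 for Csf2 and 0.04995 for Il2, the latter without WT replicate 2 (log2FC 3.04), the library with the lowest Il2 level. Without WT replicate 3 the log2FC of Il2 was 4.78. The ratio of means of Csf2 was 11.9 without WT replicate 2, the library with the highest WT level, and 5.61 without WT replicate 3.

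The promoters of Il2 and Csf2 are printed because both genes rose in the same comparison. They are RefSeq sequences of the GRCm38.p6 build, from 250 bases before to 50 after the annotated start, read 5′ to 3′ on the gene's strand. Capitals mark the core of NFAT sites, GGAAA or its complement TTTCC, and TATAAA. Il2 lies at chr3:37125905-37126204 (minus) and Csf2 at chr11:54249850-54250149 (minus). The RefSeq start of Csf2 is 232 bases upstream of the GENCODE start, so its window lies wholly upstream of the gene as GENCODE annotates it.
Il2: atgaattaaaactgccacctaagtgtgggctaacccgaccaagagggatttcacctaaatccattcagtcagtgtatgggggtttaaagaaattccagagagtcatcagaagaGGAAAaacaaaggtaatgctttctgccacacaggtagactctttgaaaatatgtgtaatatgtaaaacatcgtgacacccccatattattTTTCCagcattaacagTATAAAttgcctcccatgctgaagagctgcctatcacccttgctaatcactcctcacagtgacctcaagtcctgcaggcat
Csf2: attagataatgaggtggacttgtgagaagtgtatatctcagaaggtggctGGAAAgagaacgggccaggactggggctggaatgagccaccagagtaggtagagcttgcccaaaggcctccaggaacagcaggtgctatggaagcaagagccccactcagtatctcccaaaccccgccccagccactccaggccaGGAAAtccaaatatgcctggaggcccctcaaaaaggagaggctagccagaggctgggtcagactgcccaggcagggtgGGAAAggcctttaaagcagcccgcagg

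The NFAT core, searched on both strands, occurred 2 times in the Il2 window and 3 times in that of Csf2, and 61.3% of 32851 mouse promoters of that length held it at least once. RefSeq entries were matched for 7 of the 8 members. All 7 held the NFAT core, with 3 copies each for Csf2, Tnf and Lta, and 9.42% of all promoters held 3 or more. The core of the HIF binding site, ACGTG or GCGTG on both strands, was found in 0 of the 7 windows and in 43.8% of all promoters. TATAAA stood 30 bases before the start in Ifng, 29 in Tnf and 31 in Il2. The AP-1 site TGANTCA was found in 0 of the 7 windows and in 7.81% of all promoters. For Csf2 all these counts hold for the RefSeq window only, and the sequence next to the GENCODE start was not searched.

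Among the members that were not called, Tnf had 399, 318 and 450 scaled counts in VHL-deficient day 11 tumor against 295, 225 and 264 in WT. The groups did not overlap, and the log2FC was 0.57 with a 95% interval of -0.15 to 1.28 (adjusted p = 0.356). Tnf was called (adjusted p = 0.0382) when only both compared groups were fitted. Ifng had 1618, 1370 and 1414 against 2039, 2123 and 1272, overlapping groups with a log2FC of -0.27 and an interval of -1.10 to 0.56 (adjusted p = 0.736). Fasl, Lta and Ltb also overlapped between genotypes, with log2FC of 0.11, -0.33 and 0.43. Il10 varied more within each genotype than between them, at 0, 70.7 and 5.34 against 31.0, 35.7 and 0.865.

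Markers of other cells also differed with genotype in day 11 tumor. The 9 dendritic cell genes summed to 1957 to 2357 in VHL-deficient and 354 to 926 in WT libraries. Of these, H2-Ab1 and Xcr1 rose, while H2-Aa and H2-Eb1, which encode partners of the same class II family, fell, and each of the 9 had a read in both groups. The 5 mast cell and basophil markers summed to 39.5 to 71.5 against 9.12 to 23.8, with none called, and Mcpt4 had no read in either group. The 6 NK markers summed to 8470 to 9235 against 13516 to 14036 (Eomes and Klrb1f fell) and Ncr1 had no read in VHL-deficient cells. The 5 B cell markers summed to 76.1 to 135 against 311 to 591 (Ighm fell), and the 6 CD4 T cell markers to 3993 to 6043 against 2715 to 4093, with none called. The 9 macrophage and monocyte markers summed to 50.7 to 52.6 against 80.4 to 116, with no call, and Adgre1 had no read in WT. The 4 melanoma markers summed to 42.7 to 68.5 against 25.5 to 39.8, with no call. Mitochondrial genes took 2.89 to 3.32% of reads in VHL-deficient and 8.13 to 10.01% in WT day 11 libraries. The part of such cells and of the mitochondrial share in the Csf2 and Il2 differences was not tested.

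In unsplit day 7 tumor 0 of 8 members were called by limma and 0 by voom, where 1.91% of all tested genes were called (1.68% higher, 0.223% lower). An unadjusted p under 0.05 from limma was reached by 3 of 8 members and by 1952 of 14327 tested genes. The values of Csf2 and Il2 ran the same way as on day 11. Csf2 had 421 and 458 in VHL-deficient against 78.5 and 174 in WT cells, without overlap (log2FC 1.90, adjusted p = 0.201). Il2 had 31.1 and 76.4 against 5.45 and 4.70, also without overlap (log2FC 3.04, 95% interval 0.82 to 5.26, adjusted p = 0.184). Groups of 2 libraries can part in this way by library spread alone. The third was Il10, with 58.2 and 3.15 against 0 and 0 (adjusted p = 0.240). Ifng, at 1648 and 1572 against 1090 and 2081, had a log2FC of 0.10 with an interval of -0.92 to 1.11.

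In spleen 0 of 8 members were called by limma, 0 by voom and 0 at an unadjusted p under 0.05. Of all tested genes 3.18% were called there (2.44% higher, 0.733% lower), and 1904 of 14327 had an unadjusted p under 0.05. Csf2 was low in all 4 spleen libraries, at 11.2 and 9.02 in VHL-deficient and 2.78 and 10.5 in WT cells. Il2 had 1 read in 1 spleen library and none in the other 3. The test of whether the genotype difference was larger in tumor than in spleen called 0 of 8 members (0 by voom), and 0.0698% of all tested genes. In that test 1 of 8 members and 1377 of 14327 tested genes had an unadjusted p under 0.05. The difference of log2FC was 1.15 for Csf2 (95% interval -0.87 to 3.17), 2.19 for Il2 (-0.95 to 5.33) and 1.49 for Tnf (0.24 to 2.73, adjusted p = 0.440).

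**Figure D4:**
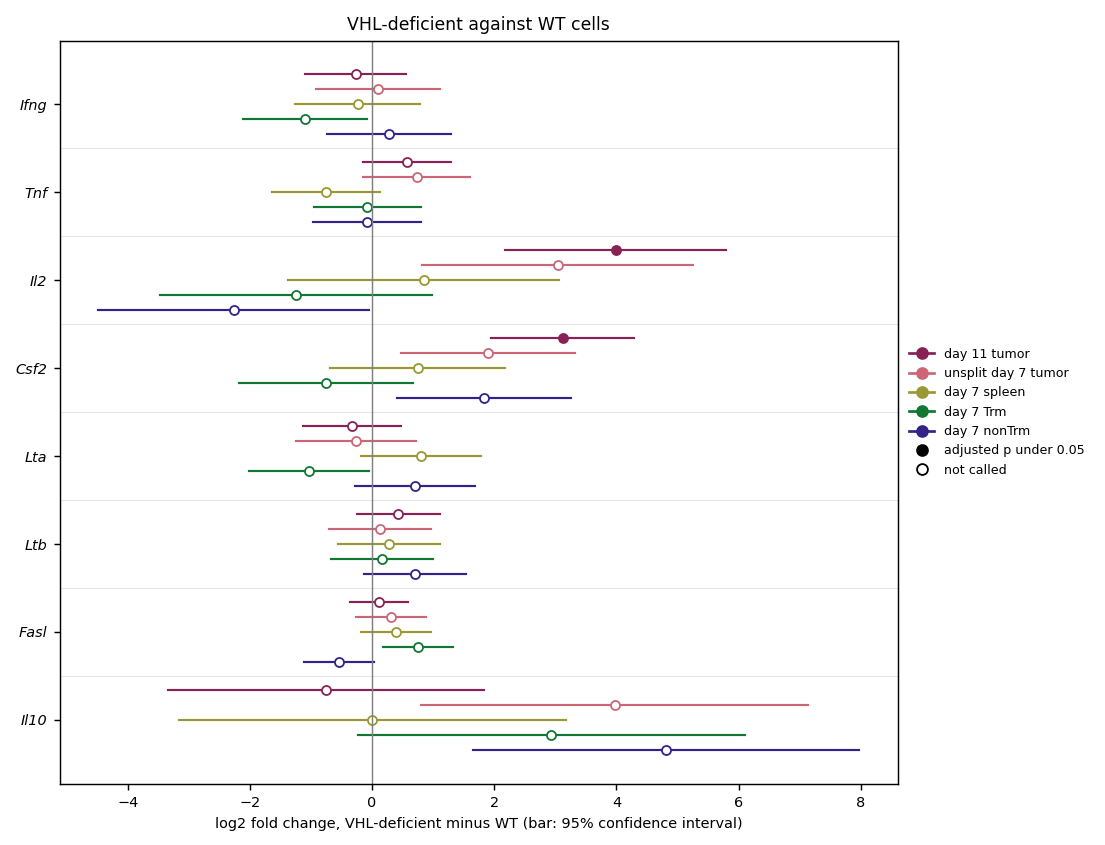
Log2 fold change of each cytokine gene between VHL-deficient and WT cells in 5 settings, with 95% confidence intervals, filled where called. The filled points are Il2 and Csf2 in day 11 tumor, and the intervals of Il10 are the widest of the 8 genes.

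Among sorted Trm cells 0 of 8 members were called between genotypes (0 by voom), where 10.1% of all tested genes were called (5.07% higher, 5.03% lower). An unadjusted p under 0.05 from limma was reached by 3 of 8 members and by 3710 of 14327 tested genes. Csf2 had 62.8 and 48.1 in VHL-deficient Trm cells against 73.0 and 119 in WT Trm cells, the opposite order to unsplit tumor (log2FC -0.75, 95% interval -2.18 to 0.68). Ifng differed between the VHL-deficient replicates, at 1839 and 363, against 1480 and 2066 in WT (log2FC -1.10, adjusted p = 0.158). Without VHL-deficient Trm replicate 1 the log2FC of Ifng was -2.27 with an adjusted p of 0.00168, in a fit where the remaining library is assumed to vary like the other groups. Fasl had 1746 and 1761 against 1316 and 823, without overlap (log2FC 0.75, adjusted p = 0.0868), and was called without VHL-deficient nonTrm replicate 2, the library that stood apart (adjusted p = 0.0482). Il10 had 44.0 and 48.9 against 4.05 and 6.58 (log2FC 2.94, adjusted p = 0.229). It was called when only both compared groups were fitted (adjusted p = 0.0176). Lta had 29.3 and 42.7 against 51.4 and 106 (log2FC -1.04, adjusted p = 0.167).

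Among nonTrm cells 0 of 8 members were called between genotypes (0 by voom), where 2.32% of all tested genes were called (1.65% higher, 0.670% lower). An unadjusted p under 0.05 from limma was reached by 3 of 8 members and by 2199 of 14327 tested genes. Il10 had 44.4 and 16.4 in VHL-deficient cells against no read in WT cells, at least 10.4-fold higher against the floor of 3 reads per library (adjusted p = 0.106). The bound was 5.61 without VHL-deficient replicate 1 and 15.2 without replicate 2. Csf2 had 54.0 and 98.2 against 45.1 and 8.35 (log2FC 1.83, adjusted p = 0.181), and was called without WT nonTrm replicate 1 (log2FC 2.98, adjusted p = 0.0444). The WT arm of that fit is 1 library with 7 Csf2 reads, and its spread is taken from other groups. Il2 had no read in VHL-deficient nonTrm cells and 4 reads in each WT nonTrm library. Ltb had 1800 and 5773 against 1457 and 2686, and the value of 5773 came from the library that stood apart. Fitted without the other VHL-deficient replicate, Ltb was called (log2FC 1.54, adjusted p = 0.00557), but that arm is then the 1 library that stood apart, with its spread taken from other groups.

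The comparison of Trm with nonTrm cells asked whether residency was accompanied by another cytokine profile. In WT cells 0 of 8 members were called (0 by voom), where 0.300% of all tested genes were called. An unadjusted p under 0.05 from limma was reached by 4 of 8 members and by 1629 of 14327 tested genes. Ifng had 1480 and 2066 in Trm against 726 and 579 in nonTrm cells, Csf2 73.0 and 119 against 45.1 and 8.35, and Lta 51.4 and 106 against 17.3 and 37.0. These 3 were higher in both WT Trm libraries, with log2FC of 1.43, 2.18 and 1.50 and adjusted p of 0.219, 0.177 and 0.173. Fasl ran the other way, at 1316 and 823 in Trm against 1993 and 2356 in nonTrm cells (log2FC -1.06, adjusted p = 0.0989). Fasl was called without VHL-deficient nonTrm replicate 2 (adjusted p = 0.0417). Without WT nonTrm replicate 1, which leaves 1 WT nonTrm library with 7 Csf2 reads, the log2FC of Csf2 was 3.33.

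In VHL-deficient cells 0 of 8 members were called between Trm and nonTrm (0 by voom), where 0.00698% of all tested genes were called. An unadjusted p under 0.05 from limma was reached by 1 of 8 members and by 1257 of 14327 tested genes. Fasl had 1746 and 1761 in Trm against 1717 and 1296 in nonTrm cells, a log2FC of 0.23. Ltb was called without VHL-deficient nonTrm replicate 1 (log2FC -1.57, adjusted p = 0.00589), a fit that leaves the library that stood apart as the only nonTrm library of that genotype. The test of the difference between genotypes called 0 of 8 members (0 by voom) and 0% of all tested genes. For that difference 3 of 8 members and 1156 of 14327 tested genes had an unadjusted p under 0.05. For Fasl that difference was 1.29 on the log2 scale (95% interval 0.48 to 2.10, adjusted p = 0.486). It was 1.49 without VHL-deficient nonTrm replicate 1, which again leaves only the library that stood apart in that group. For Csf2 it was -2.58 (-4.60 to -0.56, adjusted p = 0.566).

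Of the members, Csf2, Il2 and Lta had separate ranges in unsplit and sorted VHL-deficient tumor libraries, as did Il3. Csf2 had 421 to 1312 scaled counts in the 5 unsplit VHL-deficient libraries of both days and 48.1 to 98.2 in the 4 sorted ones. In WT cells the same ranges overlapped, 51.9 to 250 unsplit and 8.35 to 119 sorted. Il2 had 31.1 to 182 in the unsplit and 0 to 17.9 in the sorted VHL-deficient libraries. Il3, the neighbour of Csf2 and a growth factor of myeloid progenitors and mast cells, had 440 to 841 in the unsplit and 5.46 to 43.1 in the sorted VHL-deficient libraries. Lta had 56.8 to 91.7 in the unsplit and 29.3 to 49.1 in the sorted VHL-deficient libraries. Ifng (1370 to 1648 unsplit, 363 to 1839 sorted) overlapped. The mast cell and basophil markers summed to 25.2 to 32.5 in unsplit VHL-deficient day 7 tumor, 39.5 to 71.5 on day 11, 100 to 143 in Trm and 90.9 to 172 in nonTrm cells. Sorting and plate column cannot be told apart here, so these values are given side by side without a test. How many of all tested genes had separate unsplit and sorted ranges was not counted. The separation is therefore not read as particular to these genes.

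**Figure D5:**
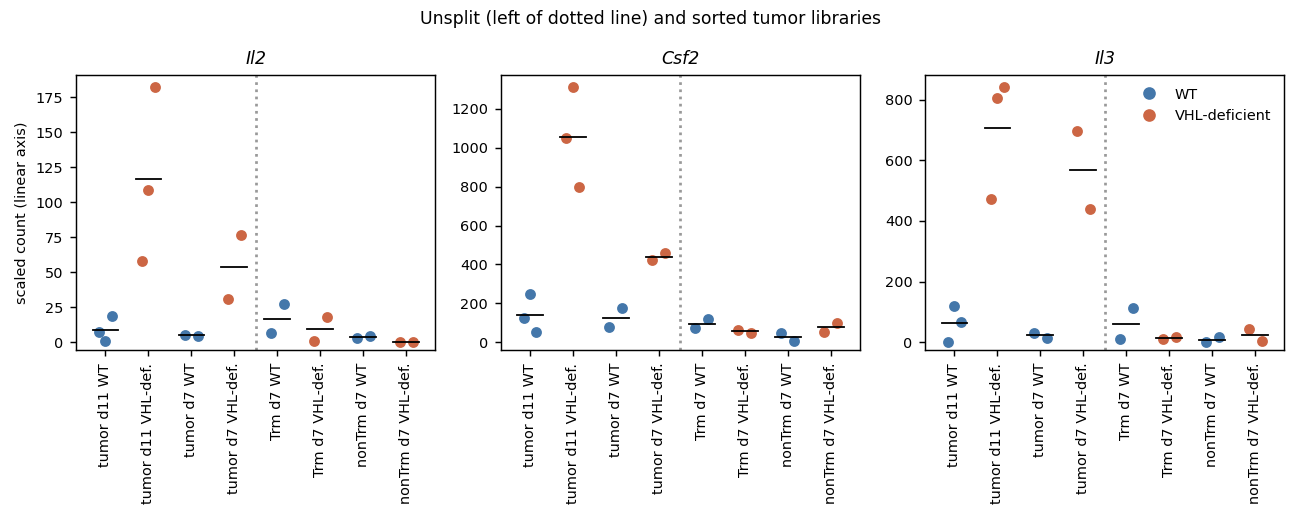
Scaled counts (linear axes) of Il2, Csf2 and Il3 in the 18 tumor libraries, with a bar at each group mean and a dotted line between unsplit and sorted groups. The 5 VHL-deficient unsplit libraries lie above all others for each gene, and the 4 VHL-deficient sorted libraries lie among or below the WT libraries.

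Between day 7 and day 11 in unsplit tumor, limma called 0 of 8 members in WT cells (1 at an unadjusted p under 0.05, 0 by voom) and 0 of 8 in VHL-deficient cells (0 at an unadjusted p under 0.05, 0 by voom). Of all tested genes 0% were called in either. An unadjusted p under 0.05 was reached by 484 of 14327 tested genes in WT cells and by 633 in VHL-deficient cells. Csf2 was higher on day 11 in every VHL-deficient library, 799 to 1312 against 421 and 458, with a log2FC of 1.23 and a 95% interval of -0.07 to 2.54. It was called (adjusted p = 0.0312) when only both compared groups were fitted. Il10 in WT cells had 31.0, 35.7 and 0.865 on day 11 against no read on day 7. Day and plate column cannot be told apart. The genotype difference was not called as differing between days for any of the 8 members (0 by voom) or any other gene (0%). In that test 1 of 8 members and 268 of 14327 tested genes had an unadjusted p under 0.05. For Csf2 the genotype difference was 1.22 larger on day 11 on the log2 scale (-0.62 to 3.07) and for Il2 0.95 larger (-1.92 to 3.82).

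The receptors of these cytokines were followed as a list of 15 genes, of which 12 passed the filter. None was called between genotypes in any of the 5 settings, where 1.91% to 10.1% of all tested genes were called. The median log2FC of the receptors lay between -0.19 and 0.33. In tumor against spleen Il2ra, the high-affinity chain of the IL-2 receptor, rose from 107 ± 23.9 to 623 ± 70.1 (SD) in WT and from 165 ± 41.2 to 1055 ± 93.8 in VHL-deficient cells (n = 2 each). Il2rb, the signalling chain, rose by a log2FC of 1.35 and 1.60. Il10rb fell by 0.79 on the log2 scale in WT tumor cells, and Tnfrsf1b, a receptor of TNF, rose by 2.34 in VHL-deficient tumor cells.

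Of 9 kinases and STAT factors that carry cytokine signals, Jak3, the kinase bound to the common gamma chain, rose with VHL deficiency in day 11 tumor (3828 ± 412 against 2100 ± 540, n = 3 each, adjusted p = 0.0319). Jak3 also rose in Trm (log2FC 1.50) and nonTrm cells (1.25). In tumor against spleen, Stat3, Stat5a and Jak3 rose in both genotypes and Jak1 fell in WT cells.

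Of 27 tested transcription regulators of cytokine genes, 14 rose and 1 fell in WT tumor against spleen, where 13.2% of all tested genes were called higher and 8.31% lower. In VHL-deficient cells 14 rose and 5 fell, beside 9.98% higher and 5.47% lower over all tested genes. Irf4, which acts downstream of the T cell receptor, had 908 ± 293 against 31.5 ± 4.60 in WT cells, a log2FC of 4.77 (4.69 in VHL-deficient cells). Fosl2 rose by 3.22 and 2.84, Crem by 3.92 and Bhlhe40 by 3.44 in WT cells, and Egr3 by 3.78 and Rel by 3.87 in VHL-deficient cells. In day 11 tumor 4 rose and 1 fell with VHL deficiency, beside 4.47% higher and 2.39% lower over all tested genes. Prdm1, which encodes the repressor Blimp-1, had 315 ± 58.3 against 103 ± 47.8 (log2FC 1.68, adjusted p = 0.00296). Egr3 rose by 1.07 and Runx3 by 0.81. Eomes, a T-box factor of CD8+ and NK cells, fell from 44.9 ± 10.9 to 2.94 ± 2.18. Among Trm cells Fosl2, Prdm1 and Crem rose and Eomes fell, while 0 of 27 were called between genotypes in unsplit day 7 tumor. Of all tested genes 10.1% were called between genotypes in Trm cells and 1.91% in unsplit day 7 tumor. With VHL deficiency in spleen 4 rose and 1 fell, beside 2.44% higher and 0.733% lower over all tested genes. Of the regulators Bhlhe40 (log2FC 2.03), Jund (1.85) and Runx3 (1.06) rose there, and Ikzf3 fell by 1.13. In nonTrm cells Jund rose (2.15), where 2.32% of all tested genes were called.

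All 11 RNA-binding regulators of cytokine mRNA passed the filter, and 0 were called between genotypes in the 5 settings, with medians between -0.08 and 0.12. Of all tested genes 1.91% to 10.1% were called in these settings. Elavl1, which encodes the stabilising protein HuR, had 922 against 990 scaled counts in day 11 tumor, and Rc3h1, which encodes the decay factor Roquin-1, had 267 against 255. In tumor against spleen Zc3h12a, which encodes the nuclease Regnase-1, rose in both genotypes (log2FC 1.94 and 1.55). Elavl1 rose and Rc3h1 and Tia1 fell in WT cells, and Zfp36, which encodes tristetraprolin, a binder of AU-rich elements, rose by 1.28 in VHL-deficient cells.

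Genes that respond to interferon gamma and to IL-2 were followed as further lists. Of 21 tested interferon gamma response genes, 5 rose and 0 fell in WT tumor against spleen and 6 rose and 0 fell in VHL-deficient cells, led by Irf8 (log2FC 6.57 and 5.62). Of all tested genes 13.2% and 9.98% were called higher in these comparisons. With VHL deficiency in day 11 tumor 0 rose and 2 fell, beside 4.47% higher and 2.39% lower over all tested genes. Psmb9, an immunoproteasome subunit, fell from 1100 to 534 and Irf8 from 3384 to 1714. In spleen Gbp3 and Nlrc5 fell, in Trm cells Gbp7 rose and Irf8 and Psmb9 fell, in nonTrm cells Igtp fell, and in unsplit day 7 tumor 0 of 21 were called. Over all tested genes 3.18%, 10.1%, 2.32% and 1.91% were called in these settings, in that order. Of 10 genes of the IL-2 and STAT5 response, Bcl2, an inhibitor of apoptosis, rose with VHL deficiency in all 5 settings. Its day 11 tumor level was 1507 ± 79.8 against 655 ± 73.6 (log2FC 1.21, adjusted p = 2.84e-04), and its log2FC in the other 4 settings was 1.21 to 1.78. The remaining 9 response genes had no call in day 11 tumor, where 6.87% of all tested genes were called and Il2 itself rose. Of these 9, Cish rose with VHL deficiency in spleen and Myc fell in Trm cells, where 3.18% and 10.1% of all tested genes were called.

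Among 9 tested other ligands of the TNF family, Tnfsf9, the ligand of the costimulatory receptor 4-1BB, rose with VHL deficiency in all 5 settings, by a log2FC of 2.88 to 3.41. In day 11 tumor it had 280 ± 61.4 against 35.3 ± 18.6 (adjusted p = 0.00174). Tnfsf8, the ligand of CD30, rose there by a log2FC of 0.98 and fell by 1.52 in VHL-deficient spleen. Among 9 tested other cytokines Il3 rose in day 11 tumor, with 474, 806 and 841 scaled counts against 1.82, 120 and 65.7 (log2FC 4.60, adjusted p = 0.0178). Areg, an epidermal growth factor family ligand, rose in nonTrm cells by a log2FC of 3.27. Il5 was also called there (log2FC 4.75), with 77.9 and 8.18 scaled counts in VHL-deficient cells against no read in WT cells. The value of 8.18 is 3 reads in the library that stood apart, so the Il5 difference rests mainly on 1 library. In the death pathway of Fas ligand, Cflar, which blocks caspase-8 activation, rose with VHL deficiency in day 11 tumor (743 ± 66.4 against 375 ± 43.3, adjusted p = 0.00685), in unsplit day 7 tumor and in Trm cells.

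Within the 18 tumor libraries, the correlations of log2 levels between members are given as a description, since libraries share groups and depth. Lta and Fasl ran opposite (Pearson's r = -0.83), as did Ifng and Fasl (r = -0.72), whereas over all 22 libraries r was 0.00656 and 0.60. Il2 and Csf2 had r = 0.64, Csf2 and Il3 r = 0.74, and the neighbours Tnf and Lta r = 0.31. The genes most like each member by Pearson's r of log2 levels over the 22 libraries, among 8370 candidates, were Tnfrsf4 for Ifng (r = 0.96), Egr3 and Zap70 for Tnf (0.89 each) and Nek8 and Slco4a1 for Il2 (0.80 and 0.79). For Csf2 they were Cdk6 (0.91) and Ccl1 (0.90), for Lta Nacc1 (0.81) and Dnmt3a (0.79), and for Ltb Slc50a1 (0.93) and Bod1l (0.92). For Fasl they were Gpr171 (0.95) and Lmna (0.92), and for Il10 Slc35e1 (0.81) and Arhgap17 (0.76). The gene nearest to Ifng (r = 0.97) carries a symbol turned into a date by a spreadsheet and is not named. Of these 16 genes, 4 were also among the nearest pair by Spearman's rho and 2 by the correlation of group means.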

How the data were processed

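RNA was sequenced from 22 libraries in 10 groups. The authors used STAR, featureCounts and DESeq (versions not stated) and the mm10 build, per the submitters' processing notes. Each deposited value is a signal: the read count of a gene divided by the authors' size factor of that library, plus 1. After removal of the offset of 1, 100% of values were whole multiples of 1 step per library (tolerance 0.01 reads, largest deviation 0.00064), which gave read counts and scaled counts. The table's header states 55 samples, and 22 value columns were present and used. Sorted cells labelled "V" were taken to be VHL-deficient. Groups hold 2 or 3 libraries and depths are 3375558 to 10211060 reads, which limits the precision of each level.

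The filter kept genes that reached a scaled count of 10 in 2 or more libraries (14327, all 8 members among them). They were tested with limma 3.58.1 in R 4.3.3 on log2(scaled count + 1). The fit had 10 group means, 12 residual degrees of freedom, eBayes(trend=TRUE) and two-sided tests with Benjamini-Hochberg adjustment over the tested genes. There were 14 comparisons, with calls made at an adjusted p below 0.05. A fold change on this scale understates the change of low genes. Intervals of log2FC are 95% confidence intervals. How many of all tested genes had groups without overlap was not counted, so a lack of overlap is a description of the values and no test. Alternatives were other scalings, filters, pseudocounts, variance models, library weights, the replicate number as a block, fits restricted to the compared groups, voom on the recovered reads and leaving out libraries.

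The members, gene lists and alternatives were chosen with earlier results of these data known. The genes named were the 8 members, the 2 tested genes most correlated with each member over the 22 libraries (mean log2 level of at least 5, no unnamed models, receptor segments or sex-linked genes), and from each list up to 4 called genes of smallest adjusted p, and where none was called up to 2 of highest level. Il3 and Il5 belong to a list, and the values of Il3 beside Csf2 were chosen after they were seen. Some called genes of the lists are not reported here. Positions and UTRs are from GENCODE M21 and promoters from RefSeq. Python 3.11.15 (numpy 2.4.6, pandas 2.3.3, scipy 1.17.1, matplotlib 3.10.9) made the tables and plots.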

Additional observations from a re-analysis of the deposited data

How the results depend on the processing

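Of 1912 member results under alternatives, 1880 kept their side of the threshold, 15 gained a call, 17 lost a call and 0 called results reversed. A further 67 changed sign while called in neither. The counts of members called moved by over 1.5 times in 3 comparisons when only the groups compared were fitted: genotype in Trm cells (1), tumor against spleen in WT cells (2) and day 11 against day 7 in VHL-deficient cells (1). The cause was not tested. Leaving out each library gave 2 to 2 called members for genotype in day 11 tumor, 0 to 1 in Trm cells and 0 to 1 in nonTrm cells. It gave 0 to 1 for Trm against nonTrm in each genotype, 3 to 5 for tumor against spleen in WT cells, 4 to 5 in VHL-deficient cells and 0 to 1 for the interaction with subset. The Tnf call in WT tumor was also lost with upper quartile scaling (adjusted p = 0.0503), eBayes without trend (0.0683), the replicate block (0.0518) and a fit of only the groups compared (0.157), which also ended the calls of Fasl (0.0570) and Lta (0.116). A pseudocount of 0.5 called Il2 in that comparison (0.0487), and Ltb was called in VHL-deficient tumor against spleen with library weights (0.0418) or only the groups compared (0.0162). Without VHL-deficient tumor replicate 2, which leaves 1 unsplit day 7 tumor library of that genotype, the log2FC of Il10 there was 5.89.

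The replicate numbers were not taken as pairs: on day 11 the deviations of same-numbered libraries correlated by 0.0427, 0.105 and 0.104, although all 3 VHL-deficient libraries correlated best with their own number. Between genotypes on day 7 the correlation was 0.236 in Trm cells, 0.271 in nonTrm cells, 0.118 in spleen and 0.0291 in unsplit tumor. In groups of 2 libraries both same-numbered pairs give the same value by construction. With the replicate number as a block, 2 members were called for genotype in day 11 tumor, 4 for tumor against spleen in WT and 5 in VHL-deficient cells, and 0 in the other 11 comparisons.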
